A study of Mus musculus with 18 samples.

Results

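RNA levels of the glycosyltransferases that build mucin-type O-glycans and the outer ends of glycan chains were followed in Lgr5+ crypt cells. The members are all genes in the count table whose symbol begins with B3gnt, B3galt, B4galt, B4galnt, Fut, Galnt, Gcnt, St3gal, St6gal, St6galnac, St8sia or C1galt followed by a digit, pseudogene symbols left out, which gave 78 of 43346 genes. The cells came from the small intestine (SI) and the large intestine (LI) of untreated C57BL/6 mice of the genotype labelled Lgr5_eGFP_Iris_creERT2, aged 8 to 20 weeks, and all 6 groups share this genotype and the absence of treatment. In this line, GFP and CreERT2 are expressed from the *Lgr5* locus, so the sort follows *Lgr5* promoter activity and only GFP-positive, EPCAM-positive live cells entered. The libraries labelled high, medium and low stand for cells of the crypt base centre, its border and rows above it (row >3). Each of the 6 groups holds 3 replicates, 18 libraries in all, and the labels do not say which mice are behind a replicate number, so that the p-values measure the spread between these samples.

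Mucin-type O-glycosylation starts in the Golgi, where a polypeptide GalNAc-transferase of the Galnt family puts GalNAc on a serine or threonine. The first sugar is then built into a core: core 1 by C1galt1, which needs its chaperone C1galt1c1 (Cosmc), core 3 by B3gnt6, and the branched cores 2 and 4 by Gcnt enzymes. B3gnt enzymes and galactosyltransferases extend the arms, and fucosyl-, sialyl- and GalNAc-transferases cap them, giving blood group, Lewis and Sda antigens. In the gut these glycans make up much of the mass of the secreted and membrane-bound mucin glycoproteins, and several of the capping enzymes also act on N-glycans and glycolipids.

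Among the 78 members were 16 Galnt genes, 8 core and branching genes, 7 B3gnt genes, 5 B3galt, 7 B4galt and 4 B4galnt genes, 8 fucosyltransferases and 20 sialyltransferases (6 St3gal, 2 St6gal, 6 St6galnac and 6 St8sia), and the remaining 3 were *B3gnt1*, which release M21 of the GENCODE annotation names *B4gat1*, and the antisense RNAs *Galnt6os* and *St8sia3os*. In all 18 libraries *B3galt1*, *Galnt15*, *St6galnac3*, *St6galnac5* and *St8sia5* had 0 counts, which left 73 tested members, of which 53 reached 10 normalised counts on average. None of the 20 tested members below that level was called in any comparison with all libraries.

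Library totals ran from 8312093 to 31940965 counts (median 21934851). The SI libraries numbered 3 stood apart from the other SI libraries. Among genes that were not members, had at least 20 CPM (counts scaled to library total) in every LI library and were at least 20-fold lower in SI replicate 1, the median level as a share of LI was 62.1% in centre (48 genes), 85.9% in border (44 genes) and 79.3% in row >3 (31 genes) of SI replicate 3, against 1.71%, 2.01% and 1.15% in SI replicate 2. The SI markers *Gata4* and *Onecut2* summed to 141, 148 and 133 normalised counts in centre, border and row >3 of SI replicate 3, against 155-317 in the other SI libraries and 0-25.9 in LI. These 3 libraries thus held these SI markers together with the LI-high genes. Whether LI tissue or RNA entered them was not tested, so SI values from all libraries may mix SI and LI, and SI results are also given without these 3. The Y-linked *Ddx3y* and *Eif2s3y* had 542 to 1419 counts each in every library numbered 2 and 0 to 1 in those numbered 1 and 3, so that the number goes with the sex of the mice at both sites. The 4 epithelial markers summed to 49644-62083 normalised counts in SI centre and 102791-123472 in SI row >3, and to 61545-65911 and 75876-87789.5 in the same groups of LI. The stromal markers summed to at most 279.7 in any library. The stem cell list (5 genes) went from 28899-106378 in SI centre to 1161-12883 in SI row >3, the lowest value being replicate 3 in both. SI border had 38242, 71201 and 3076, so border replicate 3 lay below row >3 replicates 1 and 2 (6969 and 12883). In LI the list summed to 7135-8330 in centre, 4495-5707 in border and 1614-2254 in row >3. Levels below are the authors' normalised counts, listed in the order of replicates 1, 2 and 3. Differences are log2 fold changes ± SE from edgeR, and adjusted p-values are from its quasi-likelihood test. The SE is the absolute log2 fold change divided by the square root of the F statistic of that test. It is thus derived from the test and not a separately estimated error.

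For the genes on which the results turn, the DNA just before the transcript start is shown first. These are 250 bases upstream of the RefSeq start on GRCm38.p6, 5′ to 3′ on the gene's strand. The *St3gal4* gene (chr9:35046576-35119268, minus strand) was the sialyltransferase with the largest site difference called at row >3 with all libraries, *St3gal5* (chr6:72097592-72154571, plus strand) was near 0 in SI replicates 1 and 2 and high in LI, *Gcnt2* (chr13:40859754-40960892, plus strand) differed between sites at all 3 levels, and *B3gnt3* (chr8:71690756-71701789, minus strand) was the member with the lowest adjusted p between row >3 and centre in SI. The bases shown for *St3gal4* lie inside its GENCODE span, because its RefSeq start lies downstream of the GENCODE start. Capitals mark the one HNF4 match found.
St3gal4 (chr9:35116865-35117114, minus strand): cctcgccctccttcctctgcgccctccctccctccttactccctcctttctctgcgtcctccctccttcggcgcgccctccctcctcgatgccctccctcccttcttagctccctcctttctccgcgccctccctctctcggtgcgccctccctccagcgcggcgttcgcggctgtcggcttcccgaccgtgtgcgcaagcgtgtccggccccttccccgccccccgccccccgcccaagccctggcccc
St3gal5 (chr6:72097358-72097607, plus strand): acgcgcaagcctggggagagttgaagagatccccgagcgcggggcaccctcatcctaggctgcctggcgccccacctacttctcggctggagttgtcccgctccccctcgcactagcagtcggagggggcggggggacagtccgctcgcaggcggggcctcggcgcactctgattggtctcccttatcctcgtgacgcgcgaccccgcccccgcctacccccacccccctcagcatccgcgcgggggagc
Gcnt2, first of its 3 starts (chr13:40859518-40859767, plus strand): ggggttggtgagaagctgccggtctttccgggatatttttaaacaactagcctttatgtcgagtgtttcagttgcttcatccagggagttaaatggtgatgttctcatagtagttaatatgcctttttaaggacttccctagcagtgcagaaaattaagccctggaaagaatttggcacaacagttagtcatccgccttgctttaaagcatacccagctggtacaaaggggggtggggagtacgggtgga
Gcnt2, second start (chr13:40886508-40886757, plus strand): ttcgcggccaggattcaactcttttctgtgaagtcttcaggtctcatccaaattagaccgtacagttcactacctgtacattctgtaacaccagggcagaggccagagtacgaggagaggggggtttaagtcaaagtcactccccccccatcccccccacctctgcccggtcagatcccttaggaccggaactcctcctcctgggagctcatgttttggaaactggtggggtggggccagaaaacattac
Gcnt2, last start (chr13:40917384-40917633, plus strand): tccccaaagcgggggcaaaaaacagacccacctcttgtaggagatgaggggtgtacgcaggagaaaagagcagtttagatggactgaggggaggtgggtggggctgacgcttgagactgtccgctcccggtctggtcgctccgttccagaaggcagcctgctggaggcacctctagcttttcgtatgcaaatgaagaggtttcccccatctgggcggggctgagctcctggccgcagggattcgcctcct
B3gnt3 (chr8:71701801-71702050, minus strand): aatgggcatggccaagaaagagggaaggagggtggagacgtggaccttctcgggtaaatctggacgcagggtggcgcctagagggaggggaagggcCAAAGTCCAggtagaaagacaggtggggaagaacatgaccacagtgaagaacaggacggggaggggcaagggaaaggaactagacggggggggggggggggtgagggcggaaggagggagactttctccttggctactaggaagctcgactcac

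At their RefSeq starts both *St3gal4* and *St3gal5* begin in GC-rich DNA (72.8% and 71.6% G or C, 25 CpG each). Their site patterns were opposite in SI replicates 1 and 2, whereas with all libraries *St3gal5* was called between sites at no level. The *Gcnt2* starts held 45.6% to 59.6% G or C. Over the 75 promoters of the 55 members found in the RefSeq table the median GC content was 59.6% with 14 CpG, against 52.4% and 6 over all 32851 promoters. Of motifs of factors known from intestinal epithelium, searched on both strands without mismatch, HNF4 (CAAAGTCCA) matched 1 of the 75 member promoters and 0.384% of all promoters, CDX (TTTATGG) 1 (*Galnt9*) and 2.43%, and TCF (ATCAAAG) 1 (*Fut8*) and 3.21%. These are letter matches only.

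The question of position in the crypt was addressed by comparing row >3 with centre cells. In SI, 24 of 73 members (32.9%) passed at 0.05 (edgeR, quasi-likelihood, Benjamini-Hochberg over all genes), against 13.2% of all 26717 genes tested (passing is named called below); 23 were higher in row >3 (31.5%, against 7.35% of all genes) and 1, *St6galnac2*, was lower (1.37%, against 5.82%). The median log2 fold change was 0.77 over the tested members and 0 over all genes, and 43 of the 53 members with at least 10 normalised counts lay above 0. Of the 4 epithelial markers, 3 were also higher in SI row >3 than in SI centre, with a median log2 fold change of 0.81, and their part in the members' increase was not tested. Leaving out the SI libraries numbered 3 gave 34 higher and 1 lower of 69 (background 17.1%), and fitting the replicate number as a block, which paired the libraries within a site, gave 32 higher and 2 lower (22.8%). Of the 24 calls, 23 were also made without those libraries and all 24 with the block. Scaling by library size alone gave 21 higher and 1 lower among members, and over all genes 1426 higher and 1906 lower in place of 1963 and 1555. A stricter filter on low counts (filterByExpr of edgeR, 15998 genes tested) called 25 of 57 members, 23 higher and 2 lower. It called 25.8% of all genes in place of 13.2%.

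In LI, the same comparison called 0 of 73 members with edgeR (0.0187% of all genes, 11 members at an unadjusted p under 0.05, and 0 with DESeq2), 6 with the replicate block (2.59%) and 4 without the SI libraries numbered 3 (1.9%), which enter no LI group. The median log2 fold change was 0.20 over the tested members, and 38 of the 53 lay above 0. Whether the change along the crypt differed between sites was tested as an interaction. It was called for 0 members (0% of all genes, 20 members at an unadjusted p under 0.05) and for 3 with DESeq2 (0.56%). With the replicate block it was called for 11 (2.32%), and without the SI libraries numbered 3 for 18 (3.27%). All 11 and all 18 had the higher log2 fold change in SI (1.51% and 2.57% of all genes in that direction). Border cells differed from centre cells in 0 members in SI (0.0112% of all genes; 12 at an unadjusted p under 0.05, 1 with DESeq2, which called 0.785%) and 0 in LI (0%; 1 at an unadjusted p under 0.05, 0 with DESeq2). With the block, *Fut2*, *B3gnt3* and *Gcnt2* were higher in SI border than in SI centre (background 2.32%). When the SI libraries numbered 3 were left out, 6 of 69 members (8.7%, against 0.963% of all genes) were higher in SI border, *St6galnac6*, *Galnt5*, *Galnt12*, *Fut2*, *Gcnt3* and *Galnt6*, and 7 when only SI centre replicate 3 was left out (1.21%).

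Between the sites, SI differed from LI in 9 of 73 members at centre (12.3%, against 1.99% of all genes), 2 higher (1.19% of all genes) and 7 lower (0.805%) in SI. At border it differed in 7 (9.59%, against 1.76%), 5 higher (1.15%) and 2 lower (0.606%), and at row >3 in 6 (8.22%, against 4.09%), all 6 higher (2.76%). With the filterByExpr filter 13 of 57 members differed at centre (4.84% of all genes), 7 at border (4.26%) and 6 at row >3 (8.57%). In that fit the row >3 count lay close to the share of all genes. Scaling by library size alone gave 2 higher and 10 lower at centre, 3 higher and 4 lower at border and 6 higher and 0 lower at row >3. Over all genes it gave 281 higher and 336 lower at centre in place of 317 and 215, 243 and 183 at border in place of 308 and 162, and 576 and 448 at row >3 in place of 738 and 354. With the replicate block the border count was 13 (background 4.27%), 5 higher (2.31%) and 8 lower (1.97%). It gave 20 at centre (5.61%), 4 higher (2.55%) and 16 lower (3.06%). At row >3 it gave 7 (6.89%), 6 higher (3.86%) and 1 lower (3.03%). Between sites the numbers were not taken as pairs at any level. These block counts, and the block results at border below, thus do not rest on pairs shown by the data. Without the SI libraries numbered 3 the counts were 30 of 69 at centre (background 10.9%), 4 higher (4.51%) and 26 lower (6.39%). They were 20 at border (8.11%), 7 higher (3.7%) and 13 lower (4.4%), and 18 at row >3 (12.2%), 10 higher (6.8%) and 8 lower (5.36%). Only *Gcnt2* and *St3gal4* were called at all 3 levels with all libraries and no block in edgeR, and 10 members were without those 3. The share of all genes called at all 3 levels is not given here, so these counts are descriptive only. All 9 centre calls, 6 of 7 border calls and all 6 row >3 calls were also made without the SI libraries numbered 3. The 2 kinds of comparison share libraries, so they are not independent of each other.

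**Figure D1:**
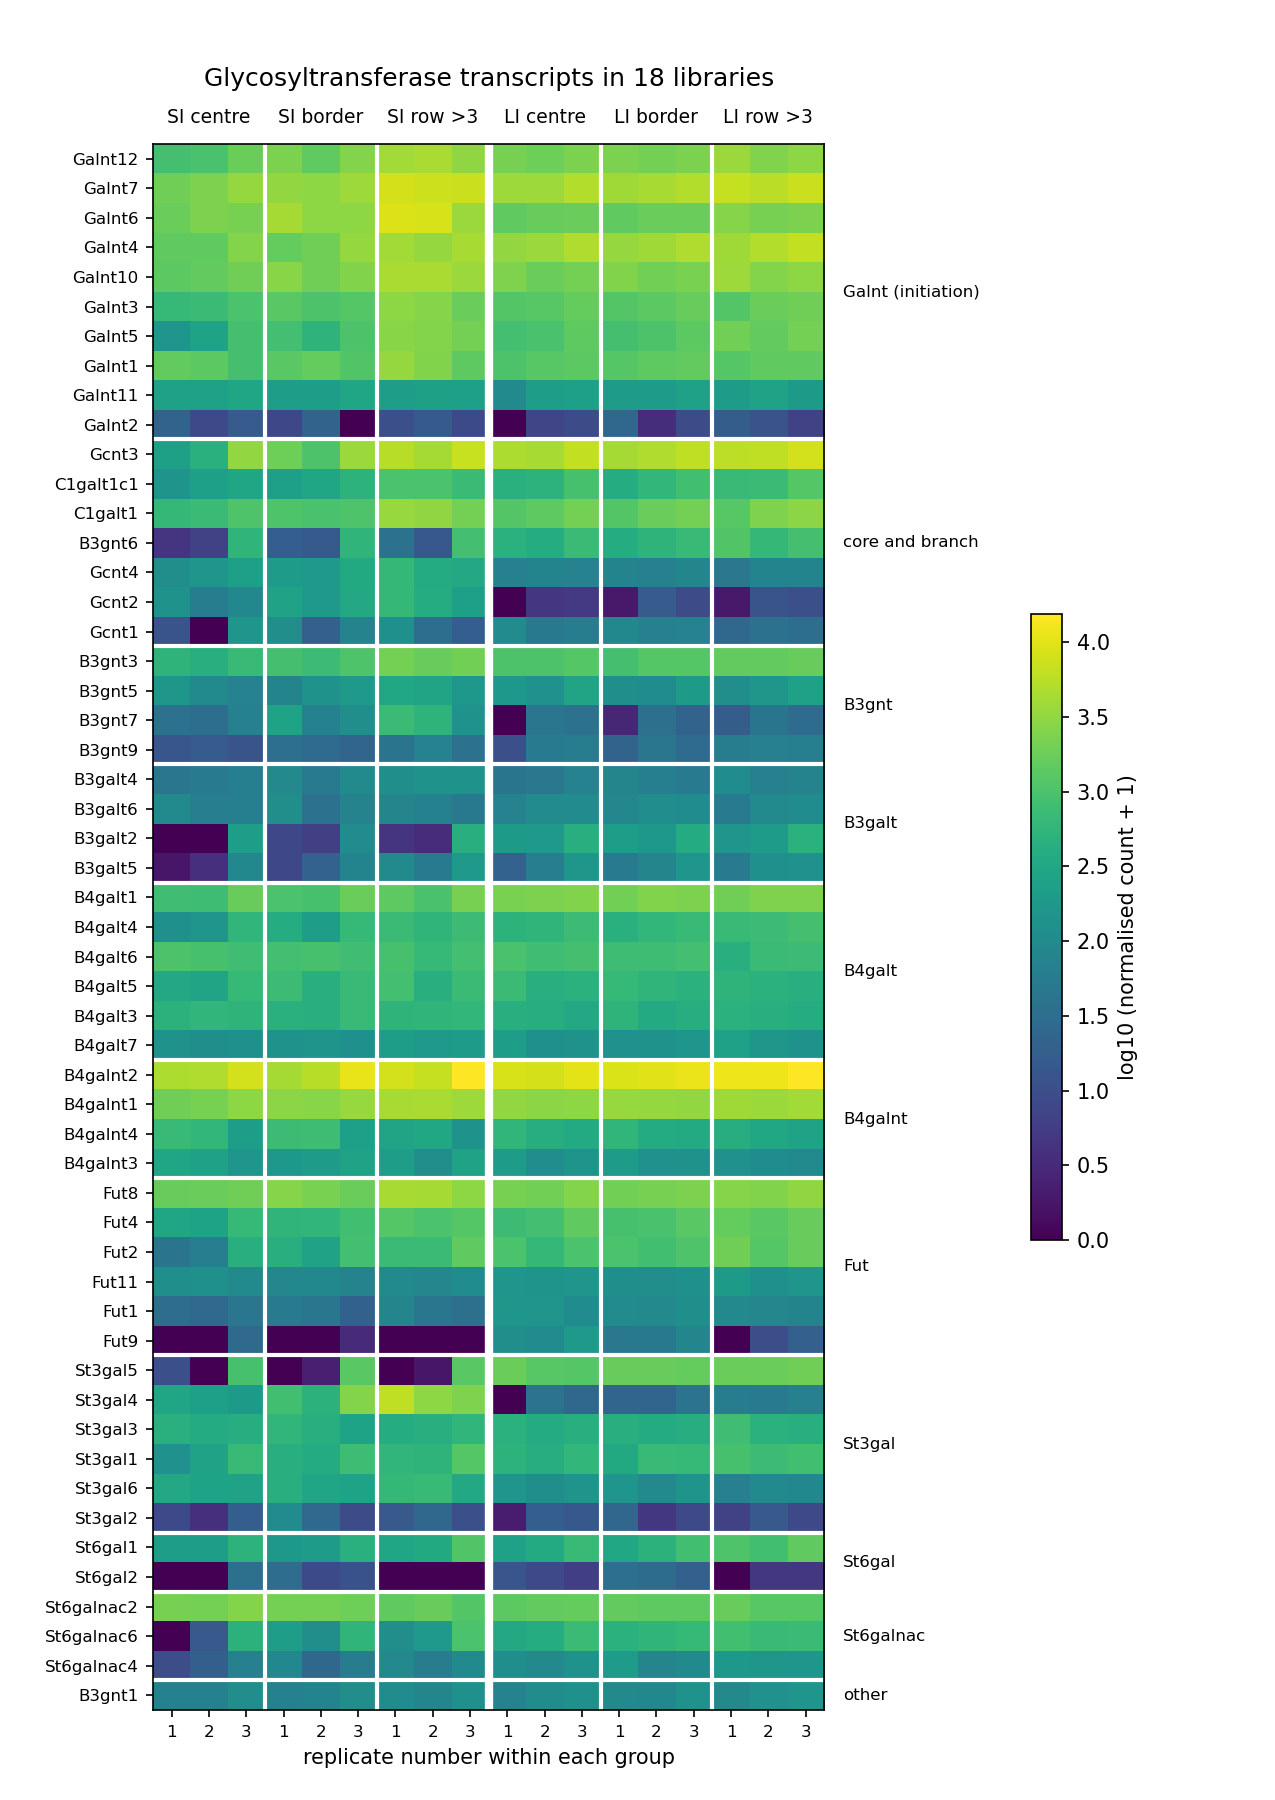
Levels of the 53 members with at least 10 normalised counts on average (rows, by enzyme class) in the 18 libraries (columns, by site and level), as log10 of the normalised count plus 1. *St3gal5* and *B3gnt6* are far below LI in SI replicates 1 and 2 and not in replicate 3, while *St3gal4* and *Gcnt2* are low in all LI libraries.

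Among the 15 tested Galnt genes, which start the glycans, 8 were higher in SI row >3 than in SI centre, 0 were lower (7.35% and 5.82% of all genes) and 7 did not pass the test, with a median log2 fold change of 1.08. *Galnt6*, which glycosylates peptides much as its close relative *Galnt3* does, had 1788, 2288 and 2104 normalised counts in SI centre, 4203, 3048 and 3045 in border and 9377, 8535 and 3667 in row >3. The row >3 libraries lay above all centre libraries, with replicate 3 lowest by far among them. Its log2 fold change was 1.80 ± 0.24 (adjusted p = 6.57e-05). In LI it had 1444, 1620.3 and 1693 in centre, 1467, 1701 and 1702 in border and 2689, 2116 and 2280.3 in row >3, so that SI exceeded LI by a log2 fold change of 1.01 ± 0.23 (adjusted p = 0.0252) at border and 1.55 ± 0.23 (adjusted p = 0.000364) at row >3. The SI and LI libraries did not overlap at any level for *Galnt6*, but at centre the difference did not pass the test (0.32 ± 0.23, adjusted p = 0.595). The border call was lost without any one of SI border replicate 1 or LI border replicates 1, 2 and 3 (adjusted p up to 0.133).

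*Galnt7* and *Galnt10*, which act on peptides that already carry GalNAc, rose as well. *Galnt7* had 1941, 2267 and 3381 normalised counts in SI centre, against 8451, 7447 and 7018 in SI row >3 (log2 fold change 1.60 ± 0.20, adjusted p = 3.52e-05). In LI centre it had 3769.7, 3719 and 4999, all above the SI centre libraries (-0.77 ± 0.19, adjusted p = 0.0358 for SI against LI), and in LI row >3 6627, 5765 and 7156, which overlapped with SI. The centre call was lost without any one of SI centre replicates 1 and 2 or LI centre replicates 2 and 3 (adjusted p up to 0.228). *Galnt10* went from 1611 ± 296 to 4213 ± 560.1 in SI (mean ± SD, n = 3; 1.39 ± 0.18, adjusted p = 5.74e-05). In LI, the log2 fold changes of these 2 genes were 0.65 ± 0.19 and 0.57 ± 0.18, which passed the test with the replicate block (adjusted p = 0.0122 and 0.031) but not without it (adjusted p = 0.435 and 0.456).

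*Galnt5* rose most within the family, from 158, 268 and 895 in SI centre to 2768, 2593 and 2029 in SI row >3 (2.48 ± 0.50, adjusted p = 0.00499); the centre library of replicate 3 was the highest of its group, and without the SI libraries numbered 3 the log2 fold change was 3.67 ± 0.31. *Galnt12*, which per kilobase of exon had the highest mean level of the family (1063 normalised counts per kb over the 18 libraries pooled), rose by 1.71 ± 0.24 (adjusted p = 0.000105), and *Galnt3*, known to glycosylate FGF23 in bone, by 1.65 ± 0.23 (adjusted p = 8.45e-05). The per-kilobase order of *Galnt12* and *Galnt6* changed with the group: *Galnt12* was higher in all 3 LI groups (1335 against 610.1 in row >3), whereas in SI row >3 *Galnt6* had 1858 and *Galnt12* 1718, and the 2 were also close in SI centre and border. The smallest called increases were in *Galnt4* (1.08 ± 0.30, adjusted p = 0.0254) and in the widely expressed *Galnt1* (0.94 ± 0.24, adjusted p = 0.00974). With the replicate block *Galnt4* was also lower in SI at border (-0.93 ± 0.16, adjusted p = 0.00155). The call of *Galnt4* along the SI crypt was lost without any one of SI row >3 replicates 1 and 3 or SI centre replicates 1 and 2 (adjusted p up to 0.114) and that of *Galnt1* without any one of SI row >3 replicate 1 or SI centre replicate 3 (adjusted p up to 0.132). *Galnt1* had 3297, 2469 and 1435 in SI row >3, so the groups overlapped: replicate 3 lay below a centre library. *Galnt11* stayed between 97.6 and 299 in all 18 libraries and was called in no comparison with all libraries.

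*Galnt2* had 202 counts in all libraries together. An overlapping same-strand gene model covers 90.0% of its exon bases and had 0 counts, so its level is uncertain. *Galnt9*, *Galnt13*, *Galnt14*, *Galnt16* and *Galnt18* had between 1 and 47 counts over the 18 libraries. With the SI libraries numbered 3 left out, the SI centre level was below LI in 6 Galnt genes (6.39% of all genes). These were *Galnt3*, *Galnt4*, *Galnt5*, *Galnt7*, *Galnt10* and *Galnt12*, with log2 fold changes from -2.37 to -0.56. At border 1 Galnt gene was higher and 2 were lower in SI in that fit (3.7% and 4.4% of all genes). At row >3 SI was above LI in 4 (*Galnt1*, *Galnt3*, *Galnt6* and *Galnt10*, from 0.54 to 1.92, against 6.8% of all genes).

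**Figure D2:**
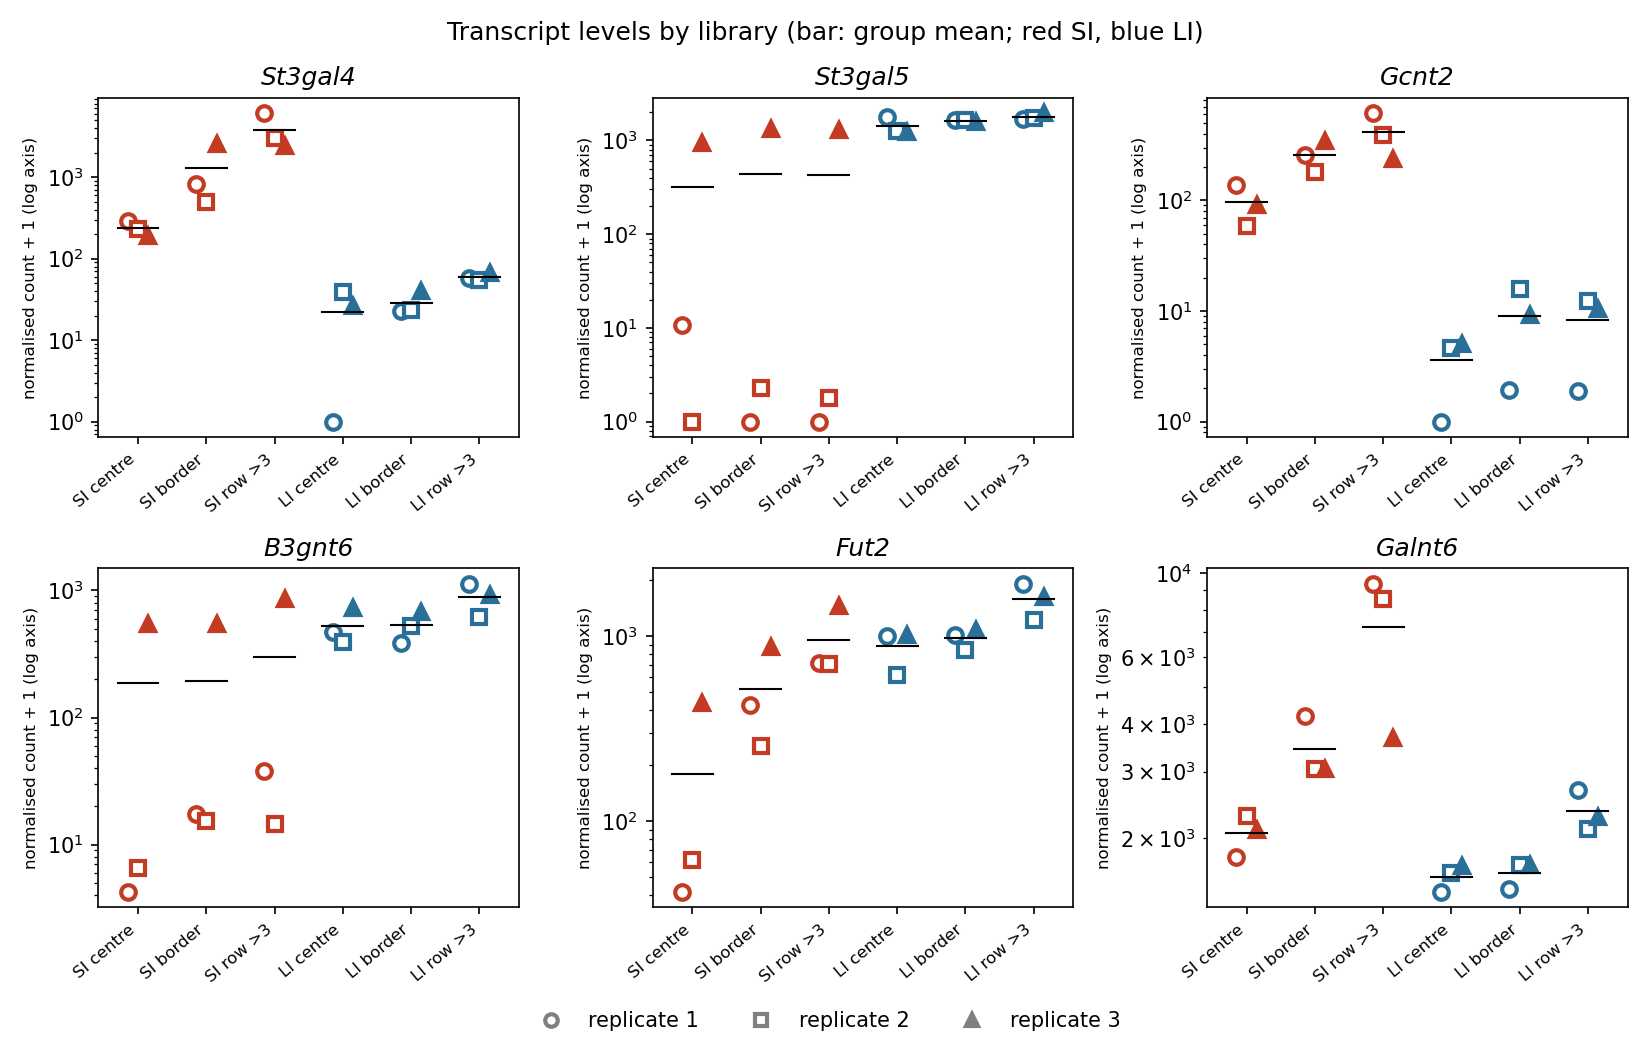
Normalised count plus 1 (log axis) of 6 members in every library, by level in the crypt; circles, squares and triangles are replicates 1 to 3, bars are group means, SI in red and LI in blue, and filled triangles are replicate 3. *St3gal4*, *Gcnt2* and row >3 *Galnt6* are higher in SI, whereas for *St3gal5*, *B3gnt6* and *Fut2* SI replicates 1 and 2 lie below LI and SI replicate 3 lies near it.

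Of the core and branching genes, *C1galt1*, the core 1 synthase, had 623, 726 and 1099.5 normalised counts in SI centre, 1088, 984 and 1092 in border and 3454, 3164 and 2076 in row >3, where all libraries lay above the centre ones (1.83 ± 0.32, adjusted p = 0.00101). Its chaperone *C1galt1c1* had 148, 230.2 and 304 in centre, 229, 294 and 501 in border and 987, 996 and 713 in row >3 (1.99 ± 0.39, adjusted p = 0.00254). In LI centre *C1galt1c1* had 447, 515 and 946, each above the highest SI centre library, and the difference passed the test (-1.55 ± 0.39, adjusted p = 0.0498). That call was lost without any one of SI centre replicates 1 and 2 or LI centre replicates 2 and 3 (adjusted p up to 0.241), and without a filter on low genes (adjusted p = 0.0785). With the block *C1galt1c1* was lower in SI at border too (-0.89 ± 0.25, adjusted p = 0.0474).

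The core 3 synthase *B3gnt6* depended on the SI libraries numbered 3. It had 3.24, 5.53 and 545 normalised counts in SI centre, 16.5, 14.3 and 547 in border and 36.9, 13.4 and 851 in row >3, against 468, 388 and 727 in centre, 387, 524 and 677 in border and 1129.5, 613 and 914 in row >3 of LI. SI replicates 1 and 2 were thus far below every LI library, and SI replicate 3 lay within or near the LI range. With all libraries no site difference passed the test (adjusted p 0.756, 0.841 and 0.741 at centre, border and row >3), and without them all 3 did (-6.92 ± 0.59, adjusted p = 2.46e-08; -5.17 ± 0.56, adjusted p = 1.12e-06; -5.09 ± 0.42, adjusted p = 1.41e-08).

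*Gcnt3*, the mucin-type enzyme for cores 2 and 4, had a mean of 1002 normalised counts per kb over the 18 libraries pooled, the highest of its class, and of 303 in SI centre against 1191 in LI centre. It had 241, 463 and 3204 in SI centre, against 5557, 4201 and 6937 in SI row >3. LI had 4697, 4292 and 6377 in centre and 5828, 6192 and 7918 in row >3. SI centre replicates 1 and 2 lay far below all LI centre libraries, and at row >3 the sites overlapped. When the SI libraries numbered 3 were left out, *Gcnt3* was lower in SI than in LI centre (-3.89 ± 0.35, adjusted p = 2.97e-06) and rose along the SI crypt (3.81 ± 0.36, adjusted p = 4.52e-06); with them neither passed (adjusted p = 0.224 and 0.1) unless the block was fitted, which called the SI increase (2.74 ± 0.54, adjusted p = 0.0055). The interaction without them was 3.44 ± 0.43 (adjusted p = 0.000424).

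Of the other branching enzymes, *Gcnt2* and *Gcnt4* were higher in SI. *Gcnt2*, which makes the I-antigen branches on poly-lactosamine, had 138, 57.1 and 90.5 normalised counts in SI centre, 255, 179 and 341 in border and 610.1, 391 and 234 in row >3. In LI it had 0, 3.64 and 4.09 in centre, 0.917, 15 and 8.19 in border and 0.911, 11.4 and 9.43 in row >3, and at each level the highest LI library lay far below the lowest SI library. The log2 fold changes of SI over LI were 4.94 ± 0.72 (adjusted p = 0.000352) at centre, 5.03 ± 0.59 (adjusted p = 1.91e-05) at border and 5.72 ± 0.57 (adjusted p = 8.32e-07) at row >3, and all 3 calls held in every leave-one-out fit. Unlike *B3gnt6*, *Gcnt2* was at the SI level in SI replicate 3 too. It also rose along the SI crypt (2.12 ± 0.42, adjusted p = 0.00117). *Gcnt4*, a core 2 enzyme, had 624, 384 and 342 in SI row >3 against 44.6, 77.4 and 76.4 in LI (2.71 ± 0.34, adjusted p = 4.32e-05), was also higher at border (1.66 ± 0.34, adjusted p = 0.0132; this call was lost without any one of SI border replicate 3 or LI border replicates 1, 2 and 3 (adjusted p up to 0.0783)) and rose from SI centre to row >3 (1.44 ± 0.32, adjusted p = 0.00368). At centre the SI and LI libraries of *Gcnt4* did not overlap (115, 157 and 228 against 65.9, 77.3 and 71.2), and the test gave 1.15 ± 0.34 (adjusted p = 0.085). The core 2 enzyme *Gcnt1* ranged from 0 to 153 with wide spread in SI, and without the SI libraries numbered 3 it was lower in SI than in LI centre (-3.48 ± 0.91, adjusted p = 0.0151) and higher in SI row >3 than in SI centre (3.72 ± 0.92, adjusted p = 0.0063). *Gcnt7* had 9 counts in all.

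Among the B3gnt genes of chain extension, *B3gnt3*, which extends core 1, changed with little spread between replicates. It had 523, 424 and 695 normalised counts in SI centre, 893, 741 and 1104 in border and 2036, 1655 and 2004 in row >3. LI had 1046, 1033 and 1199 in centre, 891, 1224 and 1216 in border and 1521, 1519.9 and 1658 in row >3. The 3 SI levels did not overlap, and the increase to row >3 was 1.80 ± 0.20 (adjusted p = 2.34e-05). SI centre was below LI centre (-1.05 ± 0.20, adjusted p = 0.00684). This call was lost without SI centre replicate 2 (adjusted p 0.0628). With the replicate block, *B3gnt3* also rose in LI (0.53 ± 0.12, adjusted p = 0.025); the interaction was 1.30 ± 0.18 (adjusted p = 0.00279).

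*B3gnt7*, known from keratan sulfate synthesis, had the steepest SI course of the B3gnt genes: 35.7, 32.2 and 67.1 in centre, 267, 67.4 and 117 in border and 719, 524 and 134 in row >3 (3.37 ± 0.73, adjusted p = 0.00589). Row >3 replicate 3 was well below the others and still above all SI centre libraries. LI row >3 had 16.4, 41.0 and 28.3, and SI was higher there by 3.93 ± 0.76 (adjusted p = 0.00742). This call was lost without LI row >3 replicate 3 (adjusted p 0.0521). *B3gnt5*, which starts lacto-series glycolipids, rose in SI from 110.5 ± 47.1 to 255 ± 77.8 (1.22 ± 0.38, adjusted p = 0.0372) and *B3gnt9* from 13 ± 2.35 to 49.1 ± 19.2 (1.94 ± 0.55, adjusted p = 0.0203). The call of *B3gnt5* was lost without any one of SI row >3 replicates 1 and 2 or SI centre replicates 2 and 3 (adjusted p up to 0.171) and that of *B3gnt9* without any one of SI row >3 replicate 2 or SI centre replicates 1, 2 and 3 (adjusted p up to 0.116). *B3gnt2*, with 150 counts in all, is covered over 58.6% of its exon bases by a same-strand gene model with 0 counts, so that its level is uncertain. *B3gnt4* and *B3gnt8* had 2 and 25 counts.

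Among the galactosyltransferases, *B3galt4*, which makes ganglio-series glycolipids, rose in SI from 42.9, 49.7 and 62.5 in centre to 123, 136 and 142 in row >3 (1.37 ± 0.34, adjusted p = 0.00948). The call was lost without SI centre replicate 1 (adjusted p 0.0573). *B3galt5*, the type 1 chain enzyme of the gut, had 0.81, 2.76 and 90.5 in SI centre, against 102, 52.9 and 179.5 in SI row >3; replicates 1 and 2 were higher in row >3, and replicate 3 was already high in centre. Leaving out the SI libraries numbered 3, its increase was 5.42 ± 1.36 (adjusted p = 0.00791) and its difference from LI at centre -5.57 ± 1.29 (adjusted p = 0.00671). With all libraries and the replicate block *B3galt5* rose in SI by 2.15 ± 0.52 (adjusted p = 0.00366). *B3galt2* had 0 counts in SI centre replicates 1 and 2, 218 normalised counts in replicate 3 and 193, 186 and 436 in LI centre. Against a floor of 3 counts over the group, LI centre was at least 224-fold higher than SI replicates 1 and 2. *B3galt6*, of the glycosaminoglycan linker, lay between 37.6 and 118 in all libraries.

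*B4galt1*, the main lactosamine galactosyltransferase and the highest of its class per kilobase (420.4 normalised counts per kb), had 809.5, 763 and 1665 in SI centre and 2228, 2309.9 and 2523 in LI centre. Every SI centre library was below every LI one, and the difference missed the threshold with all libraries (-1.18 ± 0.32, adjusted p = 0.0715), though not with DESeq2 (adjusted p = 0.0116), and passed without the SI libraries numbered 3 at centre (-1.60 ± 0.18, adjusted p = 8.4e-07), border (-1.25 ± 0.18, adjusted p = 4.18e-05) and row >3 (-0.94 ± 0.17, adjusted p = 0.00046). With all libraries and the block, *B4galt1* was lower in SI at border (-0.98 ± 0.22, adjusted p = 0.0128) and rose along the SI crypt (0.51 ± 0.11, adjusted p = 0.00224). *B4galt4* had 128, 152 and 561 in SI centre, against 716, 559 and 752 in SI row >3 (adjusted p = 0.105 with all libraries; 1.52 ± 0.26, adjusted p = 0.000268 with the block; adjusted p = 7.38e-06 without the SI libraries numbered 3). The lactosylceramide synthases *B4galt5* and *B4galt6*, and *B4galt3* and the linker enzyme *B4galt7*, were called between sites at no level, also without those libraries, although *B4galt5* rose along the SI crypt without them (1.08 ± 0.30, adjusted p = 0.0126) and with the block (0.71 ± 0.19, adjusted p = 0.00783). *B4galt2* had 136 counts in all.

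Among the B4galnt genes, *B4galnt2*, which forms the Sda antigen, had the highest mean level per kilobase of all members (5343 normalised counts per kb). It had 4637, 4967 and 8111 in SI centre, against 8084, 6616 and 15038 in SI row >3. LI had 8558, 8449 and 10452 in centre and 11896, 12156 and 15448 in row >3; SI replicate 3 lay in or near the LI range. With all libraries and no block no comparison of *B4galnt2* passed. With the block it rose in SI (0.71 ± 0.11, adjusted p = 0.000104) and in LI (0.53 ± 0.11, adjusted p = 0.0173) and was lower in SI at border (-0.72 ± 0.19, adjusted p = 0.0333). Without the SI libraries numbered 3 it was lower in SI at centre (-0.95 ± 0.17, adjusted p = 0.000288), border (-1.12 ± 0.17, adjusted p = 6.03e-05) and row >3 (-0.85 ± 0.17, adjusted p = 0.000777). *B4galnt1*, the GM2 and GD2 ganglioside synthase, rose along the SI crypt from 1900.2, 2121 and 3024 to 4309, 4548 and 3742 (0.84 ± 0.16, adjusted p = 0.00136). *B4galnt4*, a LacdiNAc enzyme, had 679, 602 and 214 in centre and 277, 329 and 134 in row >3. The decrease passed the test with the replicate block (-1.01 ± 0.16, adjusted p = 9.67e-05) and without the SI libraries numbered 3 (-1.08 ± 0.25, adjusted p = 0.00315), not otherwise (adjusted p = 0.182). *B4galnt3*, of the same reaction, lay between 98.1 and 292 and was called nowhere with all libraries.

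**Figure D3:**
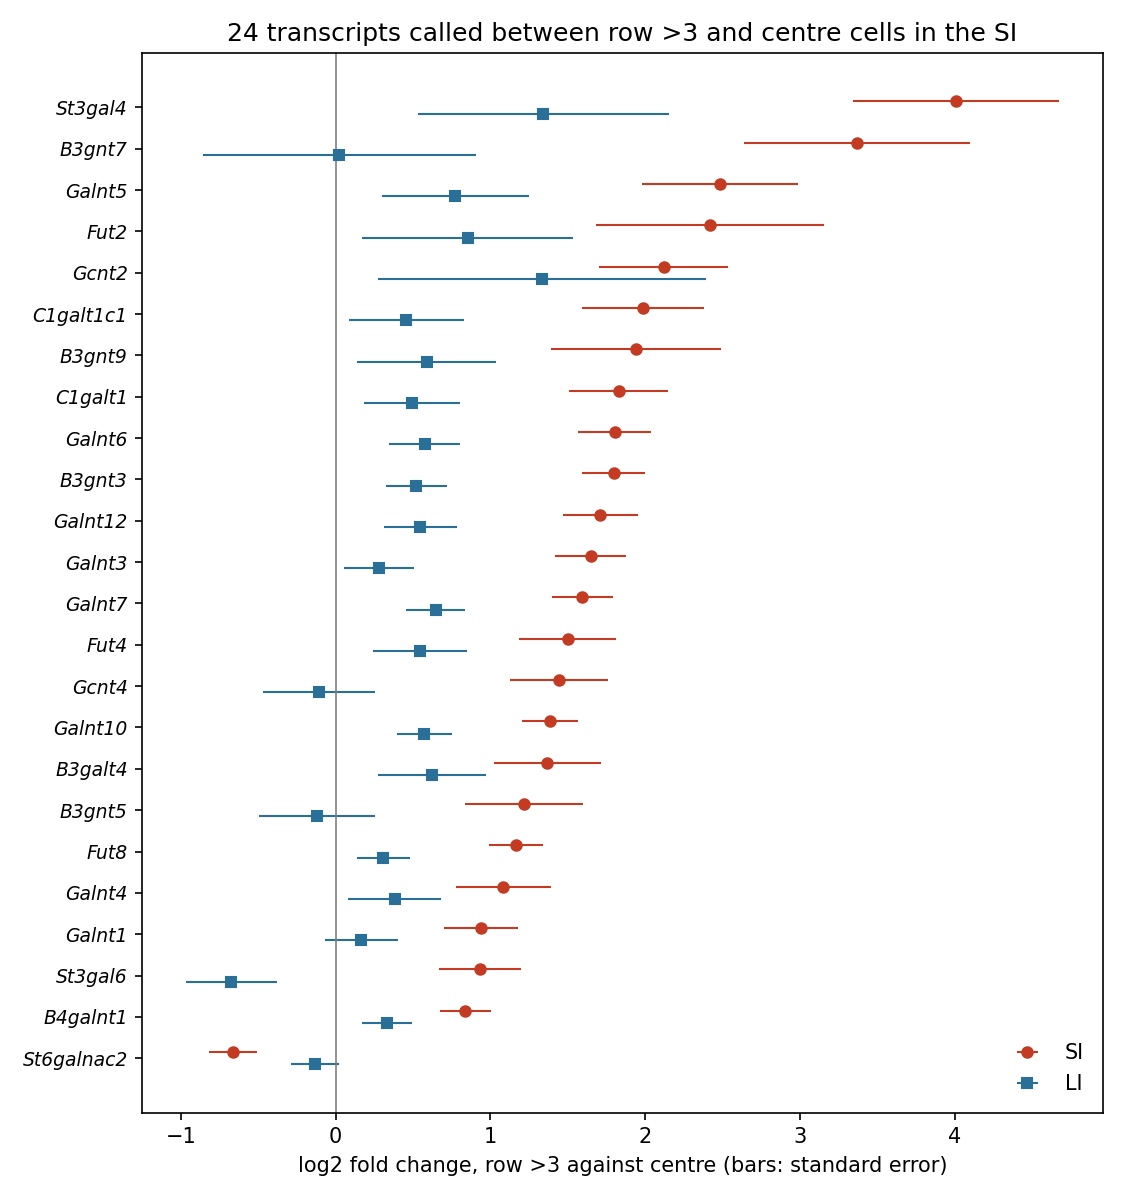
Log2 fold change of row >3 over centre (points, ± SE as bars) for the 24 members called in SI, in SI (red) and LI (blue), from edgeR. *St3gal4* is highest in SI at 4.01, *St6galnac2* is the one below 0 in SI at -0.66, and no LI value passed the test in this fit of all libraries without the replicate block.

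Among the fucosyltransferases, *Fut2*, the secretor enzyme that caps mucins with α1,2-fucose, had 40.5, 60.8 and 436 normalised counts in SI centre, 425, 255 and 874 in border and 714, 704 and 1447 in row >3. LI had 1004, 618 and 1015 in centre, 1008, 837 and 1076 in border and 1917, 1213 and 1620.2 in row >3. SI centre replicates 1 and 2 were far below replicate 3 and all LI libraries. The SI increase was 2.42 ± 0.74 (adjusted p = 0.0485) with all libraries and 3.82 ± 0.33 (adjusted p = 3.59e-08) without those numbered 3. The call was lost without any one of SI row >3 replicates 1, 2 and 3 or SI centre replicates 1 and 2 (adjusted p up to 0.157). SI was below LI at centre without the SI libraries numbered 3 (-4.14 ± 0.32, adjusted p = 2.36e-09), and with them the adjusted p was 0.137. *Fut1*, the other α1,2-fucosyltransferase, had 30.8, 25.8 and 42.9 in SI centre and 162, 149 and 109 in LI centre, all 3 SI libraries being lower (-2.13 ± 0.37, adjusted p = 0.00328). It was lower in SI at border too (-1.68 ± 0.41, adjusted p = 0.035). This call was lost without the SI libraries numbered 3 (adjusted p = 0.0696) and without any one of the 6 border libraries (adjusted p up to 0.164), and at row >3 the difference was -0.69 ± 0.36 (adjusted p = 0.376).

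*Fut4*, which makes Lewis X type α1,3-fucose, rose from 288, 272 and 651 in SI centre to 1196, 1005 and 1222 in SI row >3 (1.50 ± 0.31, adjusted p = 0.00319), and at centre SI was below LI (749, 849 and 1461 in LI; -1.40 ± 0.31, adjusted p = 0.0243). This call was lost without any one of SI centre replicates 1 and 2 or LI centre replicate 3 (adjusted p up to 0.15). At border *Fut4* was lower in SI with the block (-0.80 ± 0.20, adjusted p = 0.0239). *Fut8*, the core fucosyltransferase of N-glycans and with all libraries pooled the highest of the class per kilobase (316 normalised counts per kb; in LI row >3 *Fut4* had 366 and *Fut8* 349.6), rose in SI from 1633, 1678 and 1873 to 4430.4, 4188 and 3002 (1.17 ± 0.17, adjusted p = 0.000138). LI had 2130.1, 2009 and 2561 in centre and 2673, 2454 and 3162 in row >3. *Fut9*, another α1,3-fucosyltransferase, was detected mainly in LI, with 115, 103 and 186 in LI centre, 46.8, 48.7 and 84.1 in border and 0, 9.11 and 17.9 in row >3. In SI it was at 0 in replicates 1 and 2 of all 3 levels, and replicate 3 had 26.1, 2.1 and 0.

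With all libraries *Fut9* was lower in SI at centre (-4.05 ± 0.76, adjusted p = 0.00698) and border (-5.92 ± 1.37, adjusted p = 0.0297). The border call was lost without any one of the 6 border libraries (adjusted p up to 0.134), and neither passed with DESeq2 (adjusted p = 0.198 and 0.057). SI border held 2 counts of *Fut9* against 203 in LI border, a ratio after scaling of 69.9 (exact 95% counting interval 19.1 to 581, counting error only). Against the 3-count floor, LI centre was at least 109.6-fold and LI border at least 26.5-fold higher than SI replicates 1 and 2, and LI row >3 at least 10.5-fold higher than all 3 SI row >3 libraries. *Fut9* was the member that decreased in LI from centre to row >3 with the replicate block (-3.87 ± 0.47, adjusted p = 0.000558; adjusted p = 0.11 without it). *Fut11* lay between 72.6 and 191 in all libraries, and *Fut7* and *Fut10* had 1 and 64 counts in all.

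Among the α2,3-sialyltransferases, *St3gal4*, which sialylates lactosamine ends, had the largest SI increase among members called with all libraries and no block. It had 293, 229 and 191 normalised counts in SI centre, 817, 496 and 2579 in border and 6051, 3017 and 2412 in row >3. LI had 0, 37.9 and 25.4 in centre, 22, 22.5 and 38.7 in border and 57.4, 53.1 and 66.0 in row >3. No LI library reached the lowest SI library, and within SI the row >3 libraries lay above all centre ones. The increase along the SI crypt was 4.01 ± 0.66 (adjusted p = 0.00158), and SI exceeded LI by 3.30 ± 0.76 (adjusted p = 0.0462) at centre, 5.47 ± 0.77 (adjusted p = 0.00343) at border and 5.97 ± 0.75 (adjusted p = 0.000551) at row >3. SI border replicate 3 was the highest of its group. The centre call was lost without any one of SI centre replicates 1 and 2 or LI centre replicates 1, 2 and 3 (adjusted p up to 0.177). An opposite-strand gene overlaps 14.1% of its exon bases, had 465 counts in all against 18588 of *St3gal4*, and the strand of counting is not given.

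*St3gal6*, which acts on the same kind of chain ends, had 605, 685 and 342 in SI row >3 and 66.5, 101 and 90.5 in LI row >3 (2.60 ± 0.29, adjusted p = 1.11e-05), was higher at border (1.24 ± 0.28, adjusted p = 0.0247; this call was lost without any one of SI border replicate 1 or LI border replicates 1, 2 and 3 (adjusted p up to 0.152)), and at centre gave 0.99 ± 0.28 (adjusted p = 0.0644). It rose in SI from 334, 265 and 260.2 in centre (0.93 ± 0.27, adjusted p = 0.0218; this call was lost without any one of SI row >3 replicates 1 and 2 or SI centre replicates 2 and 3 (adjusted p up to 0.11)) and went from 139 ± 17.8 to 86.0 ± 17.7 in LI (-0.67 ± 0.29, adjusted p = 0.65). An opposite-strand gene covers 26.0% of its exon bases and had 903 counts in all, against 4821 of *St3gal6*. *St3gal5*, the GM3 ganglioside synthase, had the pattern of *B3gnt6*: 9.72, 0 and 944 in SI centre, 0, 1.3 and 1327 in border and 0, 0.79 and 1289 in row >3. LI had 1773, 1274 and 1234 in centre, 1657, 1654 and 1566 in border and 1681, 1754 and 1943 in row >3. SI replicate 3 was at 66.1%, 81.6% and 71.9% of the LI mean, and replicates 1 and 2 at most at 0.681%.

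With all libraries *St3gal5* was called between sites at no level (adjusted p 0.716, 0.822 and 0.739). Without the SI libraries numbered 3 it was lower in SI centre (-8.09 ± 0.40, adjusted p = 1.35e-12). At border the SI libraries 1 and 2 held 1 count of *St3gal5* against 5237 in LI, a ratio after scaling of 2047 (exact 95% counting interval 367 to 80878), and at row >3 1 count against 6216, a ratio of 5123 (919 to 202389); such intervals cover counting error only. *St3gal1*, a core 1 sialyltransferase, had 129.7, 262 and 659 in SI centre, against 563, 532 and 1225 in SI row >3, and its increase passed without the SI libraries numbered 3 (1.50 ± 0.30, adjusted p = 0.00106) and, with all libraries, with the replicate block (1.26 ± 0.24, adjusted p = 0.000596) but not without it (adjusted p = 0.184). *St3gal3* was between 269 and 806 in all libraries and was called nowhere with all libraries, and *St3gal2* had 270 counts in all.

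**Figure D4:**
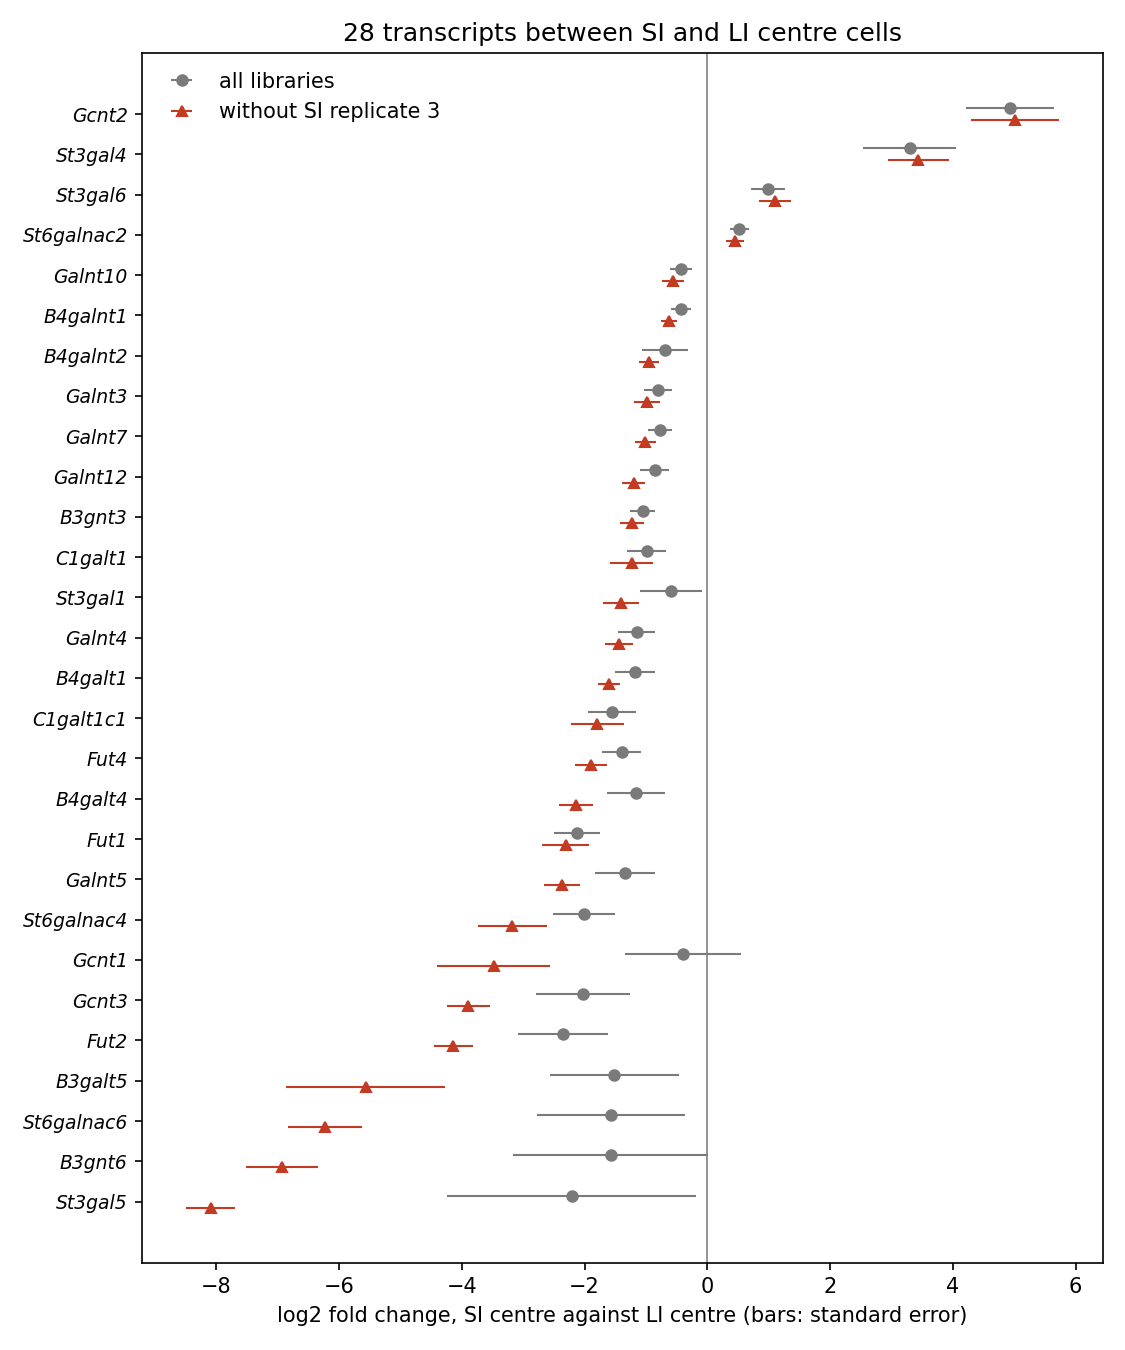
Log2 fold change of SI over LI in centre cells (points, ± SE as bars) for the members called without the SI libraries numbered 3, with all libraries and without those 3, from edgeR; 28 of 30 are drawn, and *B3galt2* and *Fut9*, at 0 in SI replicates 1 and 2, are left out. *Gcnt2*, *St3gal4*, *St3gal6* and *St6galnac2* lie above 0 in both fits, and *St3gal5*, *B3gnt6* and *St6galnac6* move furthest below 0 when the 3 libraries are left out.

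Among the remaining sialyltransferases, *St6galnac2*, which adds α2,6-sialic acid to core 1, was the called member that fell along the SI crypt, from 2163, 2028 and 2563 in centre and 2054, 2035 and 1855 in border to 1468, 1618 and 1171 in row >3 (-0.66 ± 0.16, adjusted p = 0.00582). The row >3 libraries were the lowest SI ones, without overlap, and LI row >3 had 1613, 1269 and 1237. Without the SI libraries numbered 3 the adjusted p was 0.0729. LI centre had 1381, 1547 and 1585, below all SI centre libraries; the site difference there did not pass with all libraries (0.52 ± 0.15, adjusted p = 0.0836) and passed without those numbered 3 (0.46 ± 0.15, adjusted p = 0.0494) and with DESeq2 (adjusted p = 0.00728). *St6galnac4* was lower in SI centre (8.91, 17.5 and 65.3) than in LI centre (119, 94.0 and 137; -2.01 ± 0.51, adjusted p = 0.0425). This call was lost without any one of SI centre replicates 1 and 2 or LI centre replicates 1, 2 and 3 (adjusted p up to 0.217). It rose along the SI crypt with the replicate block (1.54 ± 0.46, adjusted p = 0.0194; adjusted p = 0.0847 without it). *St6galnac6*, of ganglioside and disialyl Lewis a synthesis, had 0, 13.8 and 496 in SI centre, 219.6, 115 and 546 in border and 116, 185 and 1015 in row >3. LI had 342, 396 and 708 in centre, 478, 550.2 and 645 in border and 818, 676 and 724 in row >3. Replicate 3 was again the SI library nearest LI, and without those numbered 3 *St6galnac6* was lower in SI at all 3 levels (-6.22 ± 0.60, adjusted p = 5.93e-07 at centre). *St6galnac1*, the sialyl-Tn enzyme, had 6 counts in all libraries together.

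*St6gal1*, which puts α2,6-sialic acid on N-glycan lactosamine, had 247, 363 and 690.3 in LI centre and 1091, 828 and 1441 in LI row >3. The increase passed with the replicate block (1.44 ± 0.20, adjusted p = 0.000567) and not without it (adjusted p = 0.703). With the block it also rose in SI (0.77 ± 0.21, adjusted p = 0.00981; adjusted p = 0.477 without it) and was lower in SI at border (-1.06 ± 0.24, adjusted p = 0.0155). In SI row >3 it had 298, 343 and 1129, and SI replicates 1 and 2 were below all LI row >3 libraries (-1.81 ± 0.45, adjusted p = 0.0168 without the SI libraries numbered 3). *St6gal2* had 184 counts in all. The α2,8-sialyltransferases that build polysialic acid and disialyl gangliosides were close to the detection limit: *St8sia1*, *St8sia2* and *St8sia4* had 16, 45 and 16 counts over 18 libraries, *St8sia3* 2 and *St8sia6* 1. The 45 counts of *St8sia2* were all in LI libraries, and at the 3-count floor the LI centre libraries were at least 4.79-fold higher. Outside these classes, *B3gnt1* lay between 67.2 and 153 and was called nowhere with all libraries, and *Galnt6os* and *St8sia3os* had 128 counts and 1 count in all. In SI replicates 1 and 2, *Galnt6os* had 1 and 2 counts in centre and 40 and 7 in row >3, a ratio after scaling of 13.3 (exact 95% counting interval 4.28 to 66.8; adjusted p = 0.0149 without replicate 3). In replicate 3 it went from 30 to 4 counts, and with all libraries the difference did not pass (0.56 ± 0.73, adjusted p = 0.766). It overlaps *Galnt6* by 441 exon bases on the opposite strand.

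The other genes of the pathway, on lists of mucins, sugar nucleotide synthesis and transport, sulfation and other transferases, and sialidases and fucosidases, numbered 63 tested. From SI centre to row >3, 22 were higher and 0 lower (7.35% and 5.82% of all genes), and in LI 0 were called with all libraries and 6 were higher without the SI libraries numbered 3 (0.982% of all genes). Of 9 tested mucin genes 3 rose in SI: the secreted gel-forming *Muc2* (7468, 15661 and 142535 in centre, 471405, 346114 and 353346 in row >3; 2.81 ± 0.85, adjusted p = 0.0485) and the membrane mucins *Muc3* (2.31 ± 0.46, adjusted p = 0.00444) and *Muc13* (1.08 ± 0.17, adjusted p = 0.000249). Of 26 sugar donor genes 13 rose, among them *Gfpt1*, the entry enzyme of the hexosamine pathway (2.03 ± 0.50, adjusted p = 0.0173), the UDP-galactose transporter *Slc35a2* (1.76 ± 0.21, adjusted p = 2.65e-05) and the GDP-fucose transporter *Slc35c1* (1.69 ± 0.20, adjusted p = 2.77e-05). Also among them were *Uap1*, *Pgm3* and *Gnpnat1* of UDP-GlcNAc synthesis, *Gmds*, *Tsta3* and *Fuk* of GDP-fucose synthesis, *Nans* of sialic acid synthesis, *Galk2* and *Slc35c2*, with log2 fold changes from 0.73 to 1.37. Of 21 sulfation and other transferase genes 3 rose (*Gal3st2*, *Papss1* and *Galntl6*), and of 7 sialidases and fucosidases 3 (*Fuca1*, *Fuca2* and *Neu1*). Separate gene IDs carry the symbol *Galntl6*, including an ID that is not in GENCODE M21. Which of these IDs was called is not given here. Without the SI libraries numbered 3, 27 rose and 0 fell in SI (9.97% and 7.09% of all genes). Between sites, 6 pathway genes were lower in SI at centre (*Uap1*, *Slc35c1*, *Slc35a2*, *Slc35a3*, *Casd1* and *Galntl6*, against 0.805% of all genes). At border 2 were lower (*Slc35a3* and *Slc35b2*, against 0.606%) and at row >3 2 (*Casd1* and *Slc35b2*, against 1.32%). At row >3 *Muc3* (1.99 ± 0.45, adjusted p = 0.0252) and *Muc13* (0.82 ± 0.17, adjusted p = 0.00636) were higher (2.76% of all genes). Without the SI libraries numbered 3, 24 were lower and 0 higher at centre (6.39% and 4.51% of all genes). In that fit 21 were lower and 2 higher at border (4.4% and 3.7%) and 9 lower and 5 higher at row >3 (5.36% and 6.8%).

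Of 9 markers of goblet cells, the main mucin-secreting cells, 6 were higher in SI row >3 than in SI centre (7.35% of all genes). Of the rest, 2 did not pass and 1 was lower (5.82% of all genes). The lower one (-2.04 ± 0.37, adjusted p = 0.001) is called *Clca1* in the table, but its gene ID is *Clca3a1* in GENCODE M21. It is thus not the gene that M21 names *Clca1*, though it is kept in the list and its sum. The list had 8 higher and this 1 lower when the SI libraries numbered 3 were left out (9.97% and 7.09% of all genes). The sum of the 9 (none at 0), to which *Muc2* gave a large part, was 15699.9, 28039.6 and 218176 normalised counts in SI centre, 192944, 92784 and 282797 in border and 1067530.0, 758802 and 658415 in row >3. LI had 162335, 146838 and 239182 in centre, 202178, 196286 and 286810.0 in border and 508209, 316789 and 472838 in row >3. SI centre replicate 3 was 218176 against at most 28039.6 in the other 2, and *Galnt5*, *Fut2*, *Gcnt3* and *B3gnt6* were highest in that same centre library. Other members, such as *B3gnt5*, *Galnt1*, *B4galnt4* and *St3gal4*, were lowest in it. These members are examples and not a tally of all members. *Reg4*, the marker of the LI deep crypt secretory cells, had 297, 864 and 25348 in SI centre and 21050.2, 24359.6 and 49652 in LI centre. The absorptive list (7 genes) went from 1172-4252 in SI centre to 11518-26730.4 in SI row >3, and lay at 3058-5549 in LI. With all libraries 3 of the 7 were higher in SI row >3 than in SI centre (7.35% of all genes). In SI against LI 1 was higher at centre (1.19%) and 4 at border (1.15%) and at row >3 (2.76%), with 0 lower. Without the SI libraries numbered 3, 1 was higher and 3 lower in SI at centre (4.51% and 6.39%). In that fit 3 and 3 were at border (3.7% and 4.4%) and 4 and 3 at row >3 (6.8% and 5.36%). Paneth cell markers (5 genes) summed to 2964-126055 in SI and at most 236 in LI, where *Lyz1*, *Defa17* and *Defa24* were at 0 in centre. Tuft cell markers (5 genes, none at 0) summed to 528, 684 and 7704 in SI centre, 16986, 5359 and 8049.6 in border and 6428, 7001 and 1613 in row >3, and to 2352-5889.7 in LI. With all libraries 0 of the 5 were called in any comparison. Without the SI libraries numbered 3, 4 were higher in SI border (0.905% of all genes) and in SI row >3 (9.97%) than in SI centre. In the same fit 3 were lower in SI than in LI at centre (6.39%) and 3 higher at border (3.7%) and at row >3 (6.8%). The 4 enteroendocrine markers summed to 58.8-9254 in SI and 571-4212 in LI. The 4 immune markers summed to 1377-11960.3 in SI and 108-729 in LI, and the largest share in SI was *Cd74* (11893, 11693 and 1408 in SI centre), whereas the T cell marker *Cd3e* was at most 9.44 in any library. The part of these cell types in the member results was not tested, and fewer cells of a type and less RNA per cell cannot be told apart in these sorted pools.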

How the data were processed

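RNA of sorted Lgr5+ cells was measured with a stranded SMART-Seq kit in 18 libraries, 3 for each of 6 groups. After trimming, the authors aligned reads with STAR to mm10, and raw counts per gene were deposited (unit: count). In the second deposited table the authors divided these counts by 1 size factor per library (unit: signal), and its values are the levels given here. The strand of counting is not given in the sources used here. The members and the lists were chosen with earlier results of these data known.

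Genes with a mean count above 0 (26717 of 43346) were fitted with edgeR 4.0.16 in R 4.3.3 (quasi-likelihood test, TMM scaling, 1 fit of 6 groups, 12 residual degrees of freedom), and p-values were adjusted over all of them by the Benjamini-Hochberg method, with calls at 0.05. Named were all members called in a comparison, also only without the SI libraries numbered 3, the member with the highest level per kilobase of each class and a short list of key enzymes, with the others given by counts or range, and the pathway genes called at row >3 against centre or between sites. 1 pathway gene covered by this rule is not reported here. The script was tested on simulated data. Alternatives were DESeq2 1.42.0, other scaling factors, other filters, a replicate block, the groups compared alone, leaving out each library in turn, and leaving out the 3 SI libraries numbered 3. Deviations of same-numbered libraries correlated by 0.321 to 0.742 within SI and 0.371 to 0.646 within LI (11518 genes), so numbers were taken as pairs within a site. Between sites the correlations were 0.139 to 0.207 at border, 0.0156 to 0.233 at centre and -0.0510 to 0.277 at row >3. The border range lay within those of centre and row >3, so numbers were not taken as pairs between sites. The numbers go with sex, and in SI number 3 marks the libraries with LI-high genes, so the correlations do not show shared mice. Gene positions and exon lengths are from GENCODE M21 and promoters from RefSeq (GRCm38.p6). At depths of 8312093 to 31940965 counts, tests of members with few counts are limited, and intervals cover counting error only.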

Additional observations from a re-analysis of the deposited data

Results flagged for a closer look

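The change from centre to row >3 differed between the sites for 11 members with the replicate block, which called 2.32% of all genes. The test was the interaction in edgeR (quasi-likelihood with Benjamini-Hochberg adjustment, SI minus LI on the log2 scale). Each of the 11 log2 fold changes was higher in SI (1.51% of all genes in that direction). That of *St3gal6* was below 0 in LI (-0.65, adjusted p = 0.246) and those of the other 10 were above 0 at both sites. Among the core and chain extension genes the difference was 1.30 for *B3gnt3* (adjusted p = 0.00279), 1.58 for *C1galt1c1* (adjusted p = 0.0138) and 1.39 for *C1galt1* (adjusted p = 0.0191). Among the initiating enzymes it was 1.39 for *Galnt3* (adjusted p = 0.0113), 0.98 for *Galnt7* (adjusted p = 0.0140), 0.84 for *Galnt10* (adjusted p = 0.0294) and 0.77 for *Galnt4* (adjusted p = 0.0335). Among the capping enzymes it was 0.84 for *Fut8* (adjusted p = 0.0187), 1.58 for *St3gal6* (adjusted p = 0.0206), 1.90 for *Fut2* (adjusted p = 0.0360) and 1.01 for *Fut4* (adjusted p = 0.0456). Without the block and with all libraries edgeR called 0 members (0% of all genes) and DESeq2 3 (0.56%). Without the block edgeR called 18 without the SI libraries numbered 3 (3.27%) and 8 without SI centre replicate 3 (0.875%). The SI replicate pairs include the libraries numbered 3, whose centre library had the highest goblet marker sum of its group, and the part of that in these differences was not tested.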

How the results depend on the processing

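Across all alternatives, the 46 calls gave 690 refitted values, of which 594 stayed called, 96 lost the call and 0 changed direction; 71 of the 96 losses came from leaving out 1 library. The calls lost without a filter were those of *St6galnac4*, *C1galt1c1*, *Galnt7* and *St3gal4* for site at centre, *Fut1* for site at border and *Fut2* and *B3gnt5* for SI row >3 (adjusted p from 0.0559 for *Fut1* to 0.0785 for *C1galt1c1*). Fitting only the groups compared lost *St6galnac4*, *Galnt7* and *Fut4* at centre, *Fut1*, *St3gal4* and *St3gal6* at border and *Galnt5*, *Fut2* and *Galnt1* for SI row >3 (0.0652 for *St3gal4* to 0.273 for *Fut2*). Scaling by library size lost *Galnt6* and *St3gal6* at border and *B3gnt5*, *St3gal6* and *Galnt1* for SI row >3 (0.0541 for *Galnt6* to 0.116 for *St3gal6*). Member counts under the alternatives were as follows. Without the SI libraries numbered 3, 30 members differed between sites at centre (10.9% of all genes), 20 at border (8.11%) and 18 at row >3 (12.2%), 6 between SI border and centre (0.963%), 4 between LI row >3 and centre (1.9%) and 18 in the interaction (3.27%). The replicate block gave 20, 13, 3, 6 and 11 for site at centre, site at border, SI border, LI row >3 and the interaction, with 7 for site at row >3. Between sites, same-numbered libraries correlated by 0.139 to 0.207 at border and by as little as 0.0156 at centre and -0.0510 at row >3. The numbers, which go with the sex of the mice, were therefore not taken as pairs between sites. DESeq2 gave 18 for site at centre (4.66% of all genes), 1 for SI border (0.785%) and 3 for the interaction (0.56%). Testing without a filter gave 5 at centre (0.923%), and fitting only the groups compared gave 4 for site at border (1.17%) and 1 for LI row >3 (1.03%). The filterByExpr filter left 57 members and gave 13 for site at centre (4.84%), 7 at border (4.26%), 6 at row >3 (8.57%) and 25 for SI row >3 (25.8%). Leaving out 1 library at a time gave 3 to 21 members for site at centre (21 without SI centre replicate 3; 0.679% to 4.66% of all genes), 2 to 6 at border (0.504% to 3.24%), 5 to 8 at row >3 (1.43% to 6.34%), 0 to 7 for SI border (up to 1.21%), 0 to 0 for LI border and for LI row >3, 19 to 31 for SI row >3 (7.44% to 14.3%) and 0 to 8 for the interaction (up to 0.875%). The cause of these shifts was not tested. Of the 24 calls between SI row >3 and centre, 17 held in each of the 6 fits that left out 1 library. Fits with another dispersion step (estimateDisp), added after the data were seen, gave the same member counts. The tests of the 20 tested members under 10 normalised counts on average are limited by their low counts. Whether depth or low expression lies behind these was not tested.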
